A study of Mus musculus with 9 samples.

Results

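Zinc and copper transporters, metallothioneins and the metal sensor Mtf1 were followed across 3 sorted populations of mouse colon epithelium. The members were every gene of the expression table whose symbol begins with Slc30a, Slc31a or Slc39a followed by a number, together with Mt1, Mt2, Mt3, Mt4 and Mtf1. This gave 31 of 24421 genes: 14 Slc39a zinc importers, 10 Slc30a zinc exporters, 2 Slc31a copper transporters, 4 metallothioneins and Mtf1. The goblet-enriched population was Epcam+, Cd44+ and Kit+ and is labelled as coming from the crypt bottom. The enterocyte-enriched population was Epcam+, Cd44-neg and Cd66a-high. The Lgr5-enriched population was Epcam+, Cd44+ and Kit-neg. Each population had 3 RNA-seq libraries, and the series text gives 3 mice in all. All animals are labelled adult female C57BL/6J, with no allele and no treatment of the animals named in the labels, and their age is given no more closely. Every library came from crypts freed with EDTA, a chelator of divalent metal ions that include zinc, and sorted by surface antigens once dead cells, cell clumps and cells bearing Cd3, Cd16/Cd32, Cd31 or Cd45 had been gated out. The gates enrich for a cell type and do not isolate it.

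Zinc enters the cytosol through Slc39a (ZIP) proteins, which sit in the cell surface or in the membranes of the endoplasmic reticulum (ER) and Golgi, and leaves it through Slc30a (ZnT) proteins, either out of the cell or into secretory compartments and vesicles. Copper enters through Slc31a1. Metallothioneins are small cysteine-rich proteins that bind cytosolic zinc and copper, and Mtf1 is a zinc finger protein that senses free zinc and switches on Mt1, Mt2 and the exporter Slc30a1 through metal response elements in their promoters. In the intestine, Slc39a4 is the apical importer of dietary zinc, and Slc39a5 and Slc30a1 lie on the basolateral side of enterocytes.

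The recovered depth was 11.18 to 26.78 M reads (M, times 1000000) per library. Each population held the highest summed level of the markers of its label. Summed goblet cell markers were 49075 to 65032 TPM (transcripts per 1000000, a level per transcript length) in goblet-enriched libraries, 15547 to 23177 TPM in enterocyte-enriched libraries and 1569 to 1765 TPM in Lgr5-enriched libraries, so goblet cell transcripts were abundant in the enterocyte-enriched libraries too. Summed colonocyte markers were 586 to 1113, 6418 to 13841 and 242 to 351 TPM in the same populations, and summed Lgr5 stem cell markers were 612 to 686, 158 to 245 and 1219 to 1439 TPM. Single markers, tested as described below, did not all follow these sums. Of 10 goblet cell markers, 6 were higher and 2 lower in goblet-enriched than in enterocyte-enriched cells (28.2% and 15.9% of all tested genes). Of 10 colonocyte markers, 1 was higher in goblet-enriched than in Lgr5-enriched cells (10.7% of all). All 10 were lower in goblet-enriched than in enterocyte-enriched cells (15.9% of all). The library labelled enterocyte-enriched replicate 1 had 0.128 TPM of Xist and 139 TPM of Y-linked transcripts, against 110 to 204 TPM of Xist and at most 0.325 TPM of Y-linked transcripts in the other libraries, which goes against its label of female. Replicate 1 of every population also stood apart in Cd74, an MHC class II chain, at 1095, 3094 and 2811 TPM in goblet-enriched, enterocyte-enriched and Lgr5-enriched replicate 1 against 48.6 to 370 TPM elsewhere. Beside Cd74, the leukocyte marker that varied most was Lyz2, at 232, 133 and 12.9 TPM in the enterocyte-enriched libraries and at most 12.7 TPM elsewhere, while Ptprc was at most 1.2 TPM in any library. Where leaving out replicate 1 of a population changed the call of a member between 2 populations, the value without it is given. In bulk samples of this kind, fewer cells that express a gene and less RNA per cell cannot be told apart.

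Of the 31 members, 26 reached 1 TPM in at least 3 libraries and were tested. Their levels spanned more than 3 orders of magnitude on the TPM scale, and Mt1, Slc39a7, Mt2, Slc39a11 and Slc31a1 were among the most abundant. The moderated F test of limma, with Benjamini-Hochberg adjustment over all 12888 tested genes and a threshold of 0.05, called 19 of the 26 as different among the populations, beside 63.1% of all tested genes. Among these 19, the highest mean lay in the goblet-enriched population for 10, in the enterocyte-enriched population for 7 and in the Lgr5-enriched population for 2. The same split over all called genes was not counted, so this split cannot be read as particular to the members. The 19 include Mt3 and Slc30a2, which had to differ among tested genes, as described below. The 7 tested members that were not called were Mt2, Mtf1, Slc30a4, Slc30a6, Slc30a9, Slc31a1 and Slc39a3.

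**Figure D1:**
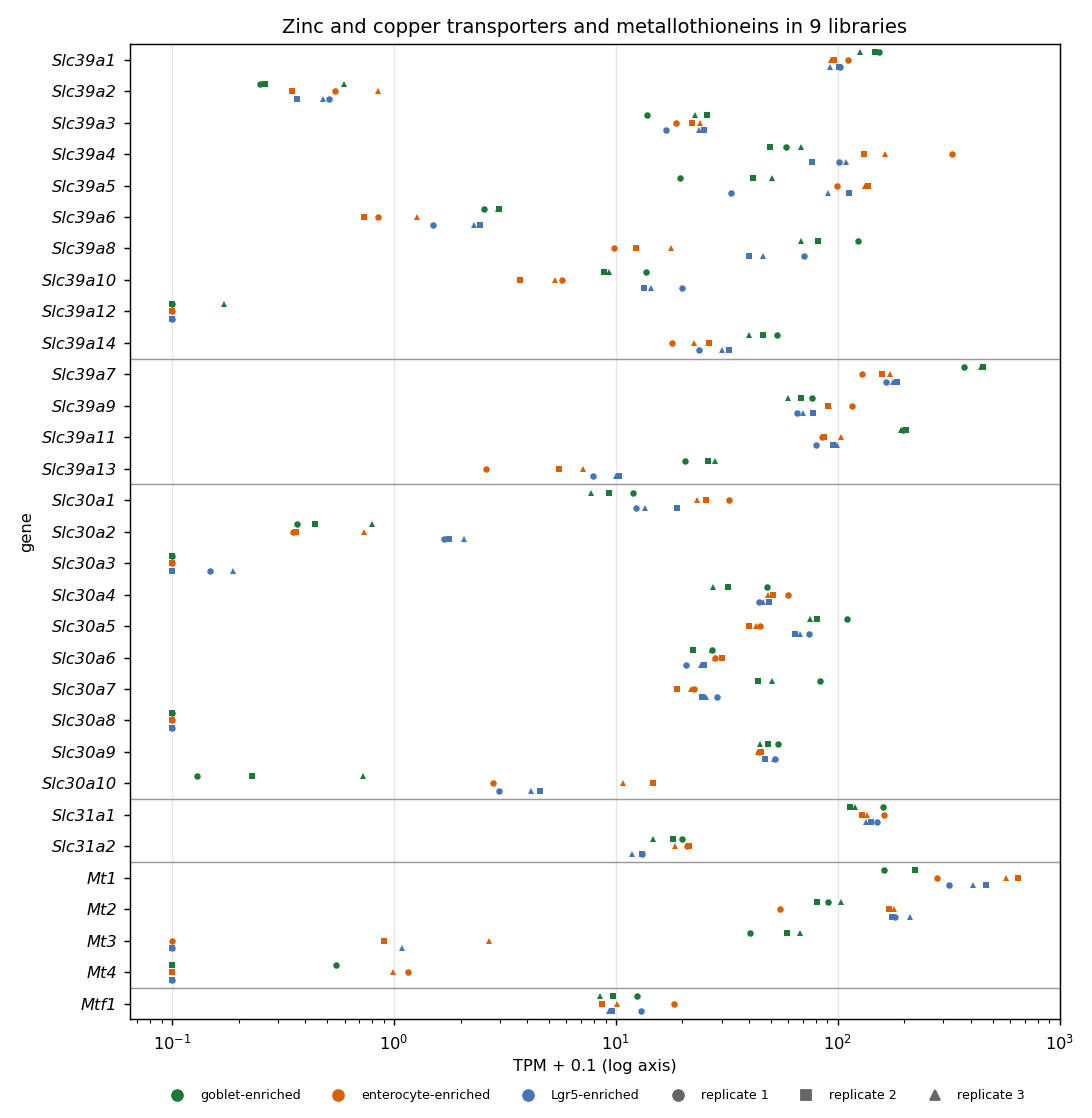
TPM of the 31 members in the 9 libraries, on a log axis after adding 0.1; lines separate surface zinc importers, inner-membrane zinc importers, zinc exporters, copper transporters, metallothioneins and Mtf1. Each symbol is a library, colour gives the population and shape the replicate. Mt3 and Slc30a10 show the widest separation between populations, while all libraries lie close together for Slc30a9, Slc30a6 and Slc31a1.

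In goblet-enriched against Lgr5-enriched cells, 7 of 26 tested members were higher (10.7% of all tested genes were) and 3 were lower (23.6% of all). The higher members were Mt3, Slc30a7, Slc39a1, Slc39a7, Slc39a11, Slc39a13 and Slc39a14, and the lower ones Mt1, Slc30a2 and Slc30a10. With the replicate number as a block, 17 were called, 9 higher and 8 lower. Calls over all 12888 tested genes rose as well, from 4423 to 6357. In enterocyte-enriched against Lgr5-enriched cells, 4 were higher (12.0% of all) and 6 lower (37.6% of all). The higher members were Slc30a1, Slc31a2, Slc39a4 and Slc39a9, and the lower ones Slc30a2, Slc30a5, Slc39a6, Slc39a8, Slc39a10 and Slc39a13. In goblet-enriched against enterocyte-enriched cells, 11 were higher (28.2% of all) and 7 lower (15.9% of all). These tallies include Mt3 and Slc30a2. Mt3 entered the tests through the goblet-enriched libraries, and Slc30a2 through the Lgr5-enriched libraries alone. Among tested genes both had to differ, so their calls are not separate evidence of a difference. Genes that entered in this way are in the percentages of all tested genes too, and were not counted there.

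The median log2 fold change of the tested members was -0.05, 0.00 and -0.02 in these comparisons, against -0.26, -0.35 and 0.20 over all tested genes. Median-of-ratios scaling shifts the log2 fold changes of all tested genes by a median of 0.21, 0.40 and -0.18. Changes near these sizes therefore depend on the scaling. Under median-of-ratios scaling, 10 members were higher and 2 lower in goblet-enriched against Lgr5-enriched cells. In enterocyte-enriched against Lgr5-enriched cells 9 were higher and 3 lower. Of all 12888 tested genes, 3388 and 5567 were called in these 2 comparisons. Quantile normalization gave 10 higher and 3 lower, and 6 higher and 4 lower, in the same comparisons. It called 3824 and 5311 of all tested genes there. The comparisons share libraries, and the same fit supplies the spread for all of them. Every p-value here is set against the spread between the 3 libraries of a population.

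**Figure D2:**
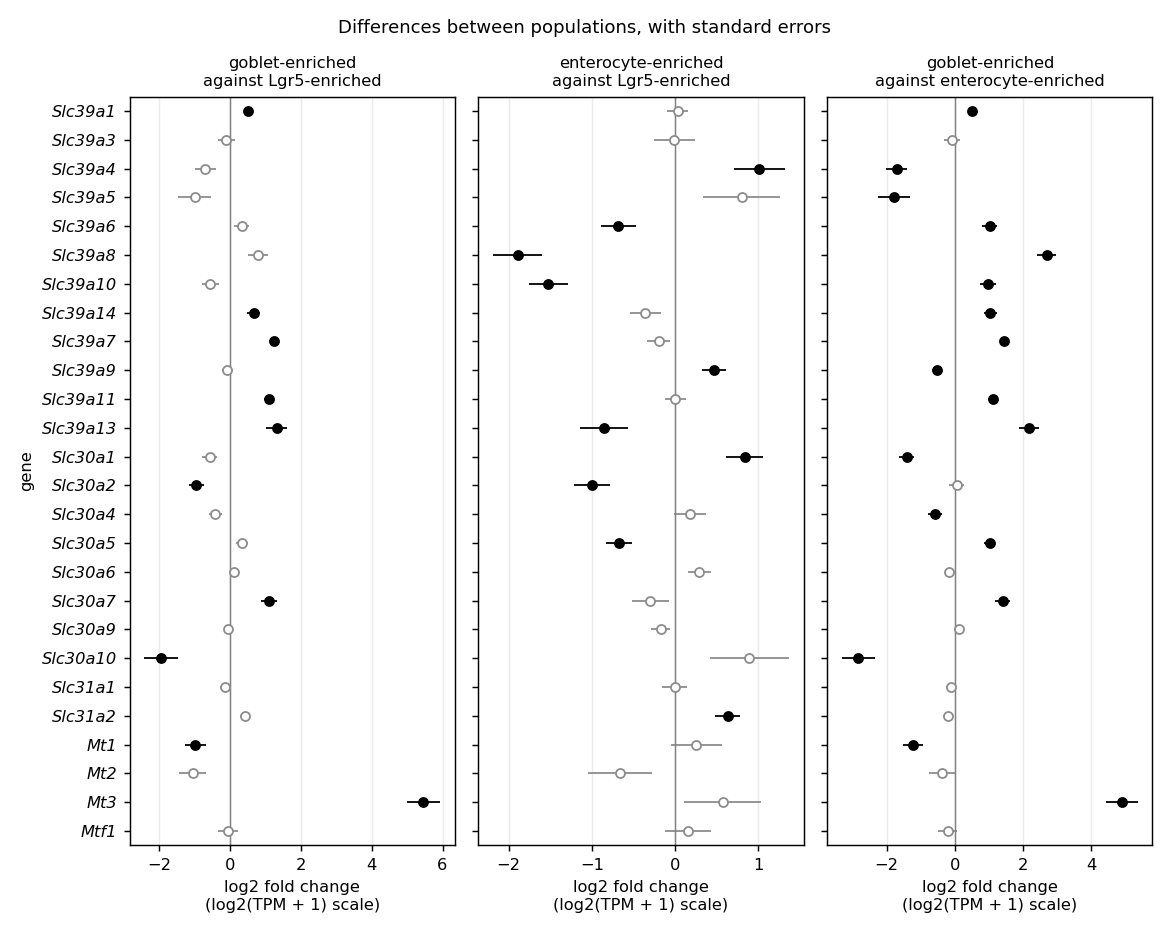
Log2 fold changes on the log2(TPM + 1) scale, with standard errors, for the 26 tested members in the 3 comparisons; filled points were called at an adjusted p below 0.05 and open points were not. The horizontal scales differ between panels; Mt3 lies farthest to the right in the goblet-enriched comparisons, at 5.46 and 4.89, and Slc30a10 farthest to the left, at -1.94 and -2.83.

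The metallothionein genes lie in a row on chromosome 8 of mm10, all on the plus strand: Mt4 (94137197 to 94139031), Mt3 (94152607 to 94154146), Mt2 (94172664 to 94173568) and Mt1 (94179082 to 94180327). The gaps between them are 13.6, 18.5 and 5.5 kb. These neighbours had different profiles. Mt3, a metallothionein best known from neurons and named for inhibiting nerve growth, stood at 40.4, 58.8 and 67.6 TPM (124, 167 and 188 reads) in goblet-enriched replicates 1 to 3. It stood at 0, 0.808 and 2.59 TPM (0, 3 and 8 reads) in enterocyte-enriched libraries and at 0, 0 and 0.99 TPM (0, 0 and 3 reads) in Lgr5-enriched libraries. Every goblet-enriched library lay above all 6 others, and 3 of those 6 held no read.

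At equal depth the goblet-enriched libraries held 207 times the Mt3 reads of the Lgr5-enriched ones (479 against 3 reads; exact 95% interval 70.4 to 1007) and 47.0 times those of the enterocyte-enriched ones (479 against 11 reads; 26.1 to 94.9). Without enterocyte-enriched replicate 3 the last ratio was 116. Without Lgr5-enriched replicate 1 the first was 104, and without Lgr5-enriched replicate 3, where no Lgr5-enriched read remains, it was at least 151 against a floor of 3 reads over the group. These intervals cover counting error only, and a count of 0 allows up to 0.534 to 1.16 TPM in those libraries. On the log2(TPM + 1) scale Mt3 was 5.46 higher (SE 0.46, limma adjusted p = 6.06e-05) in goblet-enriched than in Lgr5-enriched cells and 4.89 higher (SE 0.46, limma adjusted p = 8.51e-05) than in enterocyte-enriched cells. Mt3 took 15.7 ± 1.75% of metallothionein TPM in goblet-enriched libraries (SD, n = 3) and at most 0.343% in any other. It passed the filter on low values through the goblet-enriched libraries, so among tested genes it had to differ. Muc2, the main goblet cell mucin, was at 9639 to 13123 TPM in goblet-enriched libraries, 975 to 1326 TPM in enterocyte-enriched libraries and 39.1 to 68.7 TPM in Lgr5-enriched libraries. Mt4, known from stratified squamous epithelium, did not exceed 1.06 TPM (at most 2 reads) in any library.

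Mt1, the most abundant metallothionein in all populations, stood at 161, 223 and 222 TPM in goblet-enriched libraries, at 279, 648 and 572 TPM in enterocyte-enriched libraries and at 319, 467 and 408 TPM in Lgr5-enriched libraries. The goblet-enriched libraries were the lowest without overlap, and replicate 1 was the lowest of every population. Mt1 was 1.23 lower on the log2 scale in goblet-enriched than in enterocyte-enriched cells (log2 fold change -1.23, SE 0.31, limma adjusted p = 0.0107). Against Lgr5-enriched cells its log2 fold change was -0.97 (SE 0.31, limma adjusted p = 0.0358), a call that ended in 8 of 19 alternatives, among them median-of-ratios scaling (0.0710) and the fits without any of goblet-enriched replicates 1, 2 and 3 (0.102, 0.0630 and 0.0631) or without Lgr5-enriched replicates 2 and 3 (0.105 and 0.0991). Over all 19 alternatives this adjusted p ranged from 0.00155 to 0.105. In enterocyte-enriched against Lgr5-enriched cells Mt1 did not pass (log2 fold change 0.25, limma adjusted p = 0.513), but without the library labelled enterocyte-enriched replicate 1 it did (0.63, limma adjusted p = 0.0393).

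Mt2, its close paralog, stood at 90.8, 80.8 and 103 TPM in goblet-enriched libraries, at 55.0, 171 and 180 TPM in enterocyte-enriched libraries and at 182, 176 and 211 TPM in Lgr5-enriched libraries. Goblet-enriched and Lgr5-enriched libraries did not overlap, and enterocyte-enriched replicate 1 held the lowest value of the 9. The goblet-enriched against Lgr5-enriched difference was -1.05 on the log2 scale (SE 0.38, limma adjusted p = 0.0621; 0.0346 with the replicate block; 0.000775 without enterocyte-enriched replicate 1, whose spread enters the shared error). In goblet-enriched against enterocyte-enriched cells it was -0.39 (limma adjusted p = 0.442), and -0.94 without enterocyte-enriched replicate 1 (limma adjusted p = 0.00191). The Mt1 to Mt2 ratio of TPM was 1.77, 2.77 and 2.16 in goblet-enriched libraries, 5.07, 3.78 and 3.18 in enterocyte-enriched libraries and 1.76, 2.65 and 1.93 in Lgr5-enriched libraries, so that the enterocyte-enriched values lay above all others. How reads shared by such paralogs were divided is not given in the sources used here. Mtf1 itself stood at 12.4, 9.58 and 8.42 TPM in goblet-enriched, 18.3, 8.62 and 10 TPM in enterocyte-enriched and 12.9, 9.54 and 9.19 TPM in Lgr5-enriched libraries. These overlapped, and Mtf1 was not called (limma F test, adjusted p = 0.774).

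**Figure D3:**
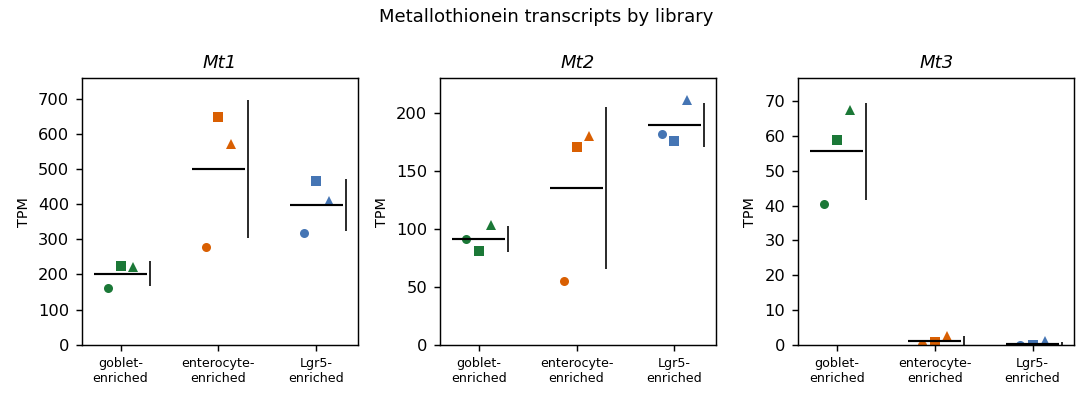
TPM of Mt1, Mt2 and Mt3 per library (circle, square and triangle for replicates 1, 2 and 3), with the mean as a horizontal line and 1 SD either side as a vertical line, n = 3 libraries per population. The goblet-enriched values of Mt1 and Mt2 lie below all Lgr5-enriched values, while Mt3 runs from 40.4 to 67.6 TPM in goblet-enriched libraries and reaches at most 2.59 TPM elsewhere.

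Promoter letters are shown for Mt1, Mt2 and Mt3, neighbours with unlike profiles, and for Slc30a1, the exporter known as an Mtf1 target. The windows are RefSeq sequence of GRCm38.p6, on the plus strand and 5′ to 3′, from 250 bases before the annotated start to 30 bases after it: chr8:94178839-94179118 for Mt1, chr8:94172368-94172647 for Mt2, chr8:94152357-94152636 for Mt3 and chr1:191906531-191906810 for Slc30a1. Capitals mark matches to the core of the metal response element, searched as TGCACNC or TGCGCNC on both strands, so that a match on the minus strand appears as its reverse complement.
Mt1: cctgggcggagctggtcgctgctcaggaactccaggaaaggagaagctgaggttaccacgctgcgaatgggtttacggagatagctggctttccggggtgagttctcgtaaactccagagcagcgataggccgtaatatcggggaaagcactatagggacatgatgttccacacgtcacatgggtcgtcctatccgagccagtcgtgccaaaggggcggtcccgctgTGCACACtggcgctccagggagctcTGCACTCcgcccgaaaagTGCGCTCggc
Mt2: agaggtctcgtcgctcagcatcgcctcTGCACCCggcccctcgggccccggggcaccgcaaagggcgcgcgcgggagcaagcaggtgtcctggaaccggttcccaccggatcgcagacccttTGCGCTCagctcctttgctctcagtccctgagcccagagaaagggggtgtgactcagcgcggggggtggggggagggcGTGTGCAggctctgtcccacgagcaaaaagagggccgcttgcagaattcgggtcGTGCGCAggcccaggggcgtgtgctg
Mt3: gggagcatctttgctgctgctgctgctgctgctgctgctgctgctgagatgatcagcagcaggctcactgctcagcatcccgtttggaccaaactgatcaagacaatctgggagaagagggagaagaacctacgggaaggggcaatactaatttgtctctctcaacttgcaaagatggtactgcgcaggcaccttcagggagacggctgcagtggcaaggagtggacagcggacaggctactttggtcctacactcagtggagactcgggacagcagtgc
Slc30a1: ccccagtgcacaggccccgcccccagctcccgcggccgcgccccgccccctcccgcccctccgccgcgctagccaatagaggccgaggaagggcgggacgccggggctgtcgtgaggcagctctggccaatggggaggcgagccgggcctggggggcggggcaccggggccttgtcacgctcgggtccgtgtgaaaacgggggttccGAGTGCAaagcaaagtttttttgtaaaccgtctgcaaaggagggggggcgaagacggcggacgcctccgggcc

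The Mt2 window held 4 matches, the Mt1 window 3, and the windows of Slc30a1 and Mt3 held 2 and 1 when counted over 300 bases, to 50 bases after the start. The match of Mt3 lies from 28 to 34 bases and the other match of Slc30a1 from 31 to 37 bases after the start, so neither is seen whole in the letters printed. At least 1 match was present in 25.7% of 32851 RefSeq windows of this length, at least 2 in 7.11%, at least 3 in 1.97% and at least 4 in 0.517%. Among the other members, Slc30a4 and Slc30a10 had 3 matches each, a pair of which overlap in Slc30a10, and Slc30a2 had 2. In all, 27 members had a window and 16 of them had a match in at least 1. Counted by window, as the 25.7% is, 17 of the 32 member windows had a match (53.1%). Slc30a8, Slc39a4, Slc39a6 and Slc39a14 had no window in the table. A match is a description of these letters and not a shown site of binding. The windows follow annotated starts, so elements farther than 50 bases after a start were not counted. Mt1 had matches at 3 to 9 and at 21 to 27 bases after its annotated start.

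**Figure D4:**
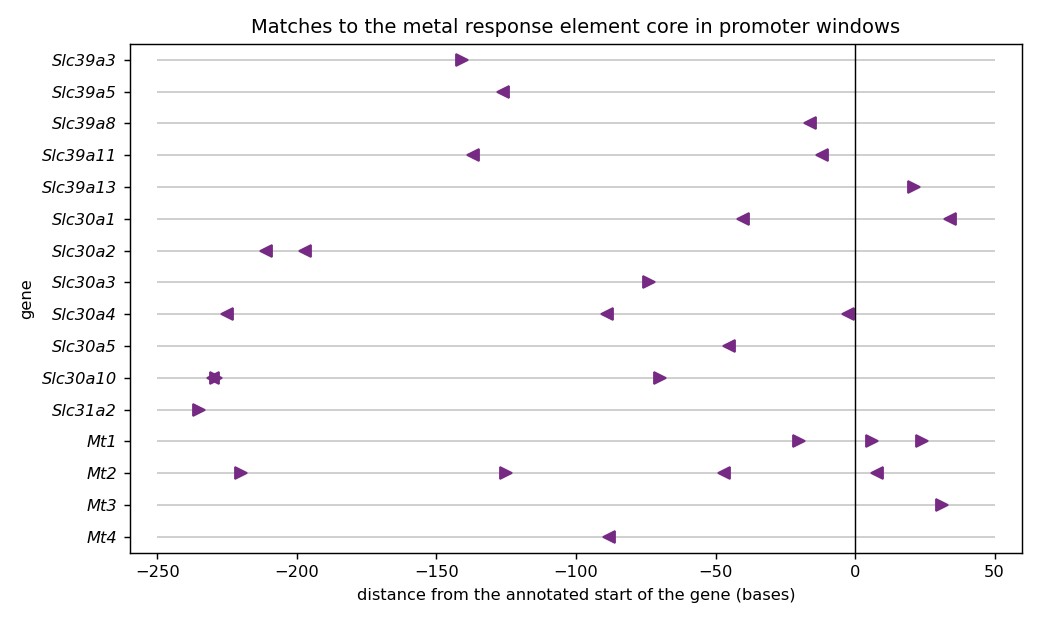
Matches to the metal response element core in the promoter windows of the 16 members with at least 1 match; the horizontal axis is the distance in bases from the annotated start, and arrowheads point right for matches on the gene's own strand and left for the other strand. Windows of genes with several annotated starts are laid over each other, and Mt2, Mt1, Slc30a4 and Slc30a10 carry the most matches.

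Among the zinc importers of inner membranes, Slc39a7, Slc39a11 and Slc39a13 were all higher in goblet-enriched cells than in both other populations, while Slc39a9 was not. The 4 genes together stood at 712 ± 42.7 TPM in goblet-enriched, 350 ± 22.4 TPM in enterocyte-enriched and 348 ± 26.3 TPM in Lgr5-enriched libraries (SD, n = 3 each). Slc39a7 (chromosome 17, 34028269 to 34031682, minus strand), which releases zinc from the ER into the cytosol, stood at 373, 451 and 443 TPM in goblet-enriched libraries, at 129, 159 and 173 TPM in enterocyte-enriched libraries and at 165, 185 and 178 TPM in Lgr5-enriched libraries. The goblet-enriched libraries lay far above the others, which overlapped each other. It was the most abundant member in the goblet-enriched population and supplied 37.6 ± 3.29% of all Slc39a TPM there, against 18.5 ± 3.86% in enterocyte-enriched and 23.8 ± 0.418% in Lgr5-enriched libraries. Its log2 fold change was 1.25 (SE 0.14, limma adjusted p = 0.000284) against Lgr5-enriched cells and 1.45 (SE 0.14, limma adjusted p = 9.14e-05) against enterocyte-enriched cells.

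Slc39a11, a divergent family member placed mainly in the Golgi, stood at 196, 204 and 193 TPM in goblet-enriched, 85.1, 86.6 and 104 TPM in enterocyte-enriched and 80.2, 95.7 and 99.7 TPM in Lgr5-enriched libraries. Its goblet-enriched values were separate from the rest, and those of the other populations overlapped. It was 1.10 higher on the log2 scale against Lgr5-enriched cells (SE 0.13, limma adjusted p = 0.00033) and 1.10 higher against enterocyte-enriched cells (SE 0.13, limma adjusted p = 0.000206). Slc39a13, a Golgi and vesicle transporter needed in mouse connective tissue, stood at 20.4, 26.0 and 27.9 TPM in goblet-enriched, 2.50, 5.46 and 6.99 TPM in enterocyte-enriched and 7.77, 10.2 and 9.92 TPM in Lgr5-enriched libraries. These values did not overlap between any of the populations. The log2 fold changes were 1.32 (SE 0.29, limma adjusted p = 0.00862) against Lgr5-enriched and 2.18 (SE 0.29, limma adjusted p = 0.000465) against enterocyte-enriched cells. In enterocyte-enriched against Lgr5-enriched cells Slc39a13 was 0.86 lower on the log2 scale (log2 fold change -0.86, limma adjusted p = 0.0359), and this call ended in 10 of 19 alternatives, up to an adjusted p of 0.275. They included the fits without enterocyte-enriched replicate 1 (0.0845) and under median-of-ratios scaling (0.158).

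Slc39a9, found in the Golgi, stood at 76.3, 68.0 and 59.4 TPM in goblet-enriched, 116, 90.4 and 90.9 TPM in enterocyte-enriched and 65.8, 77.5 and 69.8 TPM in Lgr5-enriched libraries. The enterocyte-enriched libraries lay above the others. It was higher in enterocyte-enriched than in Lgr5-enriched cells (log2 fold change 0.47, limma adjusted p = 0.0246) and lower in goblet-enriched than in enterocyte-enriched cells (-0.54, limma adjusted p = 0.0157). Without enterocyte-enriched replicate 1 neither call held (limma adjusted p = 0.0812 and 0.0509), and the first also ended without Lgr5-enriched replicate 1 (0.0668).

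The surface importers as a group differed less in their sum, at 410 ± 25.1 TPM in goblet-enriched, 493 ± 85.3 TPM in enterocyte-enriched and 393 ± 22.4 TPM in Lgr5-enriched libraries, but not in which genes made it up. Slc39a4 (chromosome 15, 76612383 to 76617384, minus strand), the apical zinc importer mutated in the human zinc deficiency acrodermatitis enteropathica, stood at 58.7, 49.4 and 68.1 TPM in goblet-enriched, 327, 132 and 163 TPM in enterocyte-enriched and 101, 76.7 and 109 TPM in Lgr5-enriched libraries. The populations did not overlap, and enterocyte-enriched replicate 1 was by far the highest. It was 1.01 higher on the log2 scale in enterocyte-enriched than in Lgr5-enriched cells (SE 0.31, limma adjusted p = 0.0219). Without enterocyte-enriched replicate 1 that value was 0.63 (limma adjusted p = 0.0367), and with replicates 2 and 3 of every population alone 0.67 (limma adjusted p = 0.05, not below the threshold). The call also ended without Lgr5-enriched replicate 2. In goblet-enriched against enterocyte-enriched cells the log2 fold change of Slc39a4 was -1.70 (SE 0.31, limma adjusted p = 0.00218), and against Lgr5-enriched cells -0.69 (limma adjusted p = 0.108; 0.0409 with the replicate block; 0.0191 without enterocyte-enriched replicate 1). Slc39a4 made up 5.24 ± 0.926% of Slc39a TPM in goblet-enriched, 24.0 ± 9.95% in enterocyte-enriched and 13.0 ± 2.63% in Lgr5-enriched libraries.

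Slc39a5, the basolateral zinc importer, stood at 19.4, 41.6 and 50.5 TPM in goblet-enriched, 98.9, 137 and 133 TPM in enterocyte-enriched and 32.9, 112 and 90.4 TPM in Lgr5-enriched libraries. Replicate 1 was the lowest of each population, and the Lgr5-enriched values overlapped with both others. Slc39a5 was lower in goblet-enriched than in enterocyte-enriched cells (log2 fold change -1.79, SE 0.46, limma adjusted p = 0.0130). Against Lgr5-enriched cells neither goblet-enriched cells (-0.99, limma adjusted p = 0.127) nor enterocyte-enriched cells (0.80, limma adjusted p = 0.182) passed in the main fit. Both passed with the replicate block (limma adjusted p = 0.0109 and 0.0199). In all, the goblet-enriched difference passed in 4 of 19 alternatives. The enterocyte-enriched difference passed in 3 of 19, among them median-of-ratios scaling. Without Lgr5-enriched replicate 1 the goblet-enriched difference passed (-1.52, limma adjusted p = 0.0159). The ratio of Slc39a4 to Slc39a5 TPM was 3.03, 3.31 and 3.07 in replicate 1 of the goblet-enriched, enterocyte-enriched and Lgr5-enriched populations and 0.685 to 1.35 in replicates 2 and 3 of all populations. Ankrd52 overlaps Slc39a5 on the other strand, so its reads are uncertain. The same holds for other members, among them Slc39a9, Slc39a11 and Slc39a13, and a gene on its own strand overlaps Slc39a7.

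Slc39a8 (chromosome 3, 135825279 to 135888572, plus strand), which imports zinc and manganese, ran the other way. It stood at 123, 81.7 and 68.5 TPM in goblet-enriched, 9.77, 12.3 and 17.7 TPM in enterocyte-enriched and 70.4, 39.8 and 46.2 TPM in Lgr5-enriched libraries. The enterocyte-enriched libraries were far below the rest, and goblet-enriched and Lgr5-enriched values overlapped. Slc39a8 was lower in enterocyte-enriched than in Lgr5-enriched cells (log2 difference -1.89, SE 0.29, limma adjusted p = 0.000892) and 2.69 higher in goblet-enriched than in enterocyte-enriched cells (SE 0.29, limma adjusted p = 0.000159). In goblet-enriched against Lgr5-enriched cells its log2 fold change was 0.79 (limma adjusted p = 0.0626), past the threshold in 6 of 19 alternatives, among them the fit without Lgr5-enriched replicate 1 (0.0304). The ratio of Slc39a4 to Slc39a8 TPM was 0.478, 0.604 and 0.993 in goblet-enriched libraries, 33.5, 10.7 and 9.19 in enterocyte-enriched libraries and 1.43, 1.93 and 2.37 in Lgr5-enriched libraries. No 2 populations overlapped in this ratio.

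Slc39a10 and Slc39a6, surface importers that bind each other in mouse cells, were both lowest in enterocyte-enriched libraries. Slc39a10 stood at 13.6, 8.78 and 9.21 TPM in goblet-enriched, 5.62, 3.62 and 5.23 TPM in enterocyte-enriched and 19.7, 13.3 and 14.4 TPM in Lgr5-enriched libraries. Its enterocyte-enriched values were separate from the rest, whereas the other populations overlapped. It was lower in enterocyte-enriched than in Lgr5-enriched cells (log2 difference -1.53, SE 0.24, limma adjusted p = 0.000892) and higher in goblet-enriched than in enterocyte-enriched cells (0.98, limma adjusted p = 0.00914), a call that ended under quantile normalization (0.0521). In goblet-enriched against Lgr5-enriched cells its log2 fold change was -0.55 (limma adjusted p = 0.1; 0.0136 with the replicate block; 0.045 without goblet-enriched replicate 1). Slc39a6, which the gene Elp2 overlaps on the other strand, was far less abundant, at 2.44, 2.88 and 2.84 TPM in goblet-enriched, 0.750, 0.635 and 1.17 TPM in enterocyte-enriched and 1.41, 2.34 and 2.19 TPM in Lgr5-enriched libraries. Its populations did not overlap, but its enterocyte-enriched values rest on 14, 17 and 26 reads. It was 1.02 higher on the log2(TPM + 1) scale in goblet-enriched than in enterocyte-enriched cells (limma adjusted p = 0.00462). It was lower in enterocyte-enriched than in Lgr5-enriched cells (-0.68, limma adjusted p = 0.0243), a call that ended in 6 of 19 alternatives, among them the fits without enterocyte-enriched replicate 1 (0.0635) or 2 and without Lgr5-enriched replicate 2 or 3.

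Slc39a14, an importer of zinc, iron and manganese, stood at 53.0, 46.0 and 39.6 TPM in goblet-enriched, 17.9, 26.1 and 22.4 TPM in enterocyte-enriched and 23.6, 32.4 and 30.1 TPM in Lgr5-enriched libraries. The goblet-enriched libraries lay above all others. It was higher in goblet-enriched than in enterocyte-enriched cells (log2 difference 1.03, SE 0.19, limma adjusted p = 0.00223) and than in Lgr5-enriched cells (0.67, limma adjusted p = 0.0224), the last not without goblet-enriched replicate 1 or 2 or Lgr5-enriched replicate 1 or 3 (adjusted p up to 0.0615). Slc39a1, a broadly expressed importer, stood at 153, 148 and 126 TPM in goblet-enriched, 111, 96.6 and 93.3 TPM in enterocyte-enriched and 102, 101 and 92.2 TPM in Lgr5-enriched libraries, again highest in goblet-enriched libraries without overlap. The log2 fold changes of Slc39a1 were 0.53 (limma adjusted p = 0.0111) against Lgr5-enriched cells and 0.50 (limma adjusted p = 0.0104) against enterocyte-enriched cells. The first ended without Lgr5-enriched replicate 3 (0.0516) and the last under median-of-ratios scaling (0.122). Slc39a3, a related importer, stood at 13.7 to 25.8 TPM over the 9 libraries and was not called (limma F test, adjusted p = 0.924). Slc39a2 was at 0.15 to 0.746 TPM, and Slc39a12 had 1 read in goblet-enriched replicate 3 and none in the other libraries.

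**Figure D5:**
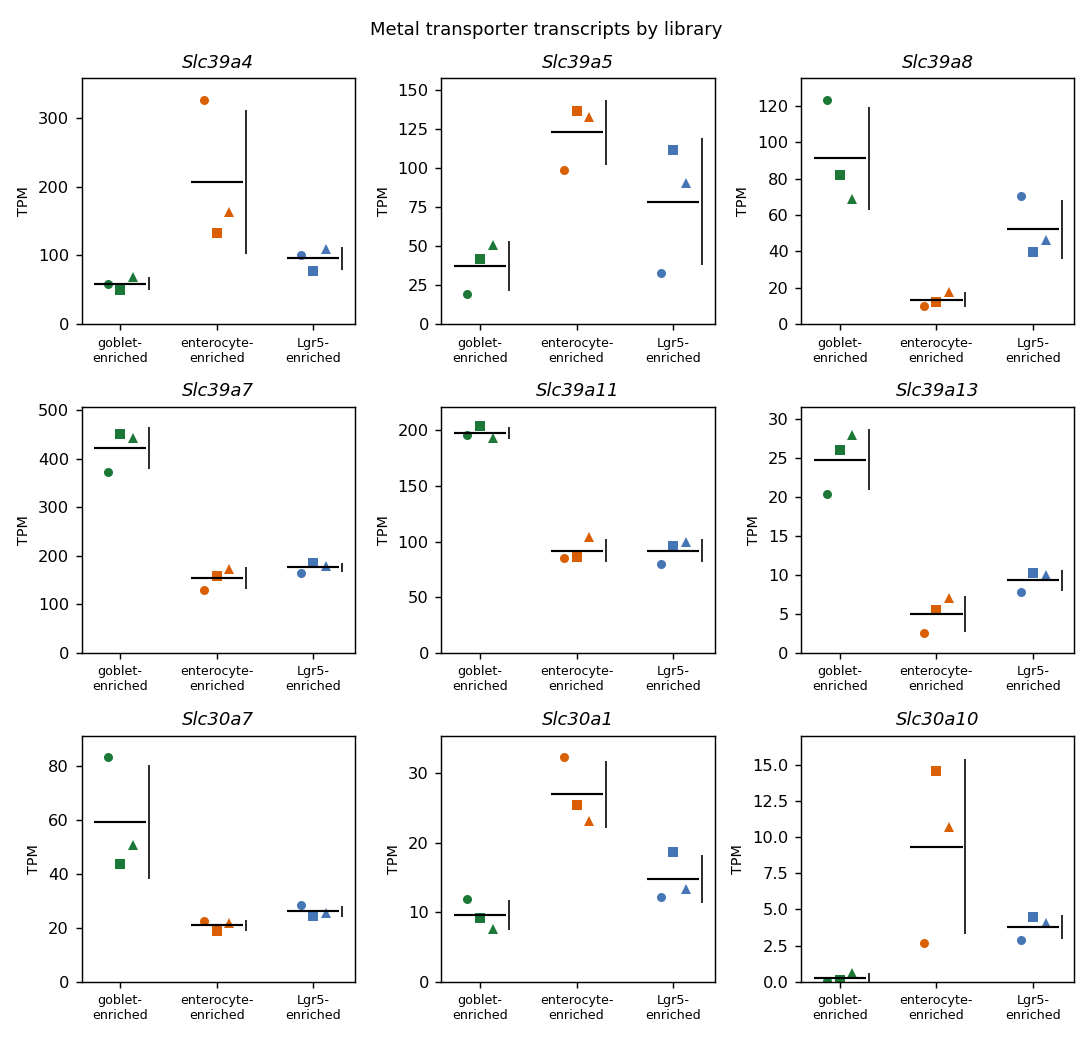
TPM per library of 9 transporters (circle, square and triangle for replicates 1, 2 and 3), with the mean as a horizontal line and 1 SD either side as a vertical line, n = 3 libraries per population. Slc39a7, Slc39a11, Slc39a13 and Slc30a7 are highest in goblet-enriched libraries and Slc39a4 and Slc30a1 in enterocyte-enriched libraries, Slc39a8 is lowest in enterocyte-enriched and Slc30a10 in goblet-enriched libraries.

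Among the zinc exporters of the secretory pathway, Slc30a7 and Slc30a5 were higher in goblet-enriched than in enterocyte-enriched cells, and Slc30a6 was not called. Slc30a7, which loads zinc into the Golgi for enzymes on their way to the surface, stood at 83.4, 43.8 and 50.7 TPM in goblet-enriched, 22.5, 18.7 and 21.7 TPM in enterocyte-enriched and 28.4, 24.3 and 25.4 TPM in Lgr5-enriched libraries. Every goblet-enriched library lay above all others. Its log2 fold change was 1.11 (SE 0.22, limma adjusted p = 0.00531) against Lgr5-enriched and 1.41 (SE 0.22, limma adjusted p = 0.00108) against enterocyte-enriched cells. Slc30a5, which does the same work as a pair with Slc30a6, stood at 110, 80.4 and 74.8 TPM in goblet-enriched, 44.8, 39.7 and 42.9 TPM in enterocyte-enriched and 74.6, 64.0 and 67.5 TPM in Lgr5-enriched libraries. No populations overlapped, although goblet-enriched replicate 3 and Lgr5-enriched replicate 1 nearly met.

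Slc30a5 was 1.02 higher on the log2 scale in goblet-enriched than in enterocyte-enriched cells (SE 0.16, limma adjusted p = 0.000938) and lower in enterocyte-enriched than in Lgr5-enriched cells (-0.68, limma adjusted p = 0.0062; 0.241 under median-of-ratios scaling). Against Lgr5-enriched cells the goblet-enriched difference was 0.34 (limma adjusted p = 0.118; 0.0394 with the replicate block). Its partner Slc30a6 did not follow, at 20.6 to 30.0 TPM over all libraries (limma F test, adjusted p = 0.206). The enterocyte-enriched libraries of Slc30a6 lay just above all others. Its F test passed under median-of-ratios scaling (limma adjusted p = 0.00683) and quantile normalization (0.00655). In enterocyte-enriched against Lgr5-enriched cells its log2 difference was 0.29 (limma adjusted p = 0.11), past the threshold in 3 of 19 alternatives. Slc30a5 and Slc30a7 together supplied 54.7 ± 2.79% of Slc30a TPM in goblet-enriched, 28.1 ± 1.85% in enterocyte-enriched and 40.3 ± 2.97% in Lgr5-enriched libraries. Alpi, intestinal alkaline phosphatase and the only one of 4 alkaline phosphatase genes listed as clients that was tested, was listed at 0 in all goblet-enriched libraries. It was 6.09 ± 3.86 TPM in enterocyte-enriched and 0.198 ± 0.174 TPM in Lgr5-enriched libraries (log2(TPM + 1) difference of these 2 populations 2.44, limma adjusted p = 0.000562). Alpi passed the filter on low values through the enterocyte-enriched libraries alone, so among tested genes it had to differ.

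Slc30a1 (chromosome 1, 191906767 to 191913247, plus strand), the surface zinc exporter, stood at 11.9, 9.20 and 7.62 TPM in goblet-enriched, 32.4, 25.4 and 23.1 TPM in enterocyte-enriched and 12.2, 18.7 and 13.4 TPM in Lgr5-enriched libraries. The enterocyte-enriched libraries were highest and the goblet-enriched lowest, without overlap. Slc30a1 was 0.83 higher on the log2 scale in enterocyte-enriched than in Lgr5-enriched cells (SE 0.22, limma adjusted p = 0.0122) and 1.41 lower in goblet-enriched than in enterocyte-enriched cells (log2 fold change -1.41, SE 0.22, limma adjusted p = 0.00109). In goblet-enriched against Lgr5-enriched cells it was -0.57 (limma adjusted p = 0.0722; 0.0421 with the replicate block; 0.041 without goblet-enriched replicate 1).

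Slc30a10 (chromosome 1, 185454848 to 185468762, plus strand), known as a manganese exporter of liver and intestine, stood at 0.0301, 0.13 and 0.63 TPM (1, 4 and 19 reads) in goblet-enriched, 2.71, 14.6 and 10.7 TPM (76, 587 and 358 reads) in enterocyte-enriched and 2.87, 4.45 and 4.04 TPM (175, 126 and 133 reads) in Lgr5-enriched libraries. The goblet-enriched libraries were far below the others, while enterocyte-enriched replicate 1 lay under all Lgr5-enriched libraries. At equal depth the enterocyte-enriched libraries held 39.4 times the reads of the goblet-enriched ones (1021 against 24 reads, exact 95% interval 26.3 to 61.7). The ratio was 129 without goblet-enriched replicate 3, which held most of the goblet-enriched reads. The interval covers counting error only and not the spread between libraries. The log2(TPM + 1) differences of goblet-enriched cells were -2.83 against enterocyte-enriched (SE 0.48, limma adjusted p = 0.00158) and -1.94 against Lgr5-enriched cells (SE 0.48, limma adjusted p = 0.0137). In enterocyte-enriched against Lgr5-enriched cells it was 0.89 (limma adjusted p = 0.15), and 1.51 without enterocyte-enriched replicate 1 (limma adjusted p = 0.00438).

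Summed enteroendocrine markers were also lower in goblet-enriched libraries, at 20.6 to 94.1 TPM, against 152 to 244 TPM in enterocyte-enriched and 160 to 304 TPM in Lgr5-enriched libraries. Of that list 9 of 10 genes were tested, and 1 was higher and 4 were lower in goblet-enriched against Lgr5-enriched cells (10.7% and 23.6% of all tested genes). The sum of genes listed as Paneth cell markers ran the other way. It was 271 to 2015 TPM in goblet-enriched, 143 to 541 TPM in enterocyte-enriched and 5.98 to 23.4 TPM in Lgr5-enriched libraries. Defa5 and Defa24 were at 0 in all, and the sum does not show that Paneth cells were present. Tuft cell markers summed to 7.94 to 49.5, 2.78 to 5.70 and 1.93 to 4.66 TPM in the same populations. The part of cells with these transcripts in the transporter differences was not tested.

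Slc30a2, which loads zinc into vesicles and is best known from the mammary gland, stood at 0.265, 0.343 and 0.701 TPM in goblet-enriched, 0.251, 0.262 and 0.631 TPM in enterocyte-enriched and 1.59, 1.68 and 1.98 TPM in Lgr5-enriched libraries. These values rest on 5, 6 and 12 reads in goblet-enriched, 4, 6 and 12 reads in enterocyte-enriched and 55, 27 and 37 reads in Lgr5-enriched libraries, and the Lgr5-enriched values lay above all others. It was lower in goblet-enriched (log2(TPM + 1) difference -0.95, limma adjusted p = 0.00997) and enterocyte-enriched cells (-1.0, limma adjusted p = 0.00464) than in Lgr5-enriched cells. It passed the filter on low values through the Lgr5-enriched libraries alone, so among tested genes it had to differ. Slc30a4, an endosomal exporter, stood at 48.2, 31.9 and 27.4 TPM in goblet-enriched, 59.5, 50.9 and 48.5 TPM in enterocyte-enriched and 44.3, 49.1 and 46.2 TPM in Lgr5-enriched libraries. Goblet-enriched replicate 1 lay among the Lgr5-enriched values, and goblet-enriched replicates 2 and 3 lay below all others. Slc30a4 was lower in goblet-enriched than in enterocyte-enriched cells (-0.59, limma adjusted p = 0.0362), a call that ended in 9 of 19 alternatives, among them the fits without goblet-enriched replicates 2 or 3, without Lgr5-enriched replicates 2 or 3 and without any of the enterocyte-enriched replicates (0.111 without replicate 1), with adjusted p up to 0.119. Its F test did not pass (limma adjusted p = 0.0597) but did with the replicate block (0.0295). Against Lgr5-enriched cells its goblet-enriched log2 difference was -0.41 (limma adjusted p = 0.136), and -0.63 without goblet-enriched replicate 1 (limma adjusted p = 0.0116). Slc30a9, a mitochondrial zinc exporter, was nearly level at 43.6 to 53.7 TPM (limma F test, adjusted p = 0.369). Slc30a3, the synaptic vesicle transporter, had 1 read in each of 2 Lgr5-enriched libraries, and Slc30a8, the transporter of insulin granules, had none in any library.

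The copper importer Slc31a1 stood at 160, 114 and 120 TPM in goblet-enriched, 161, 129 and 136 TPM in enterocyte-enriched and 151, 141 and 134 TPM in Lgr5-enriched libraries. All populations overlapped, and it was not called (limma F test, adjusted p = 0.681). Slc31a2, its neighbour on chromosome 4 at a distance of 62.3 kb and a regulator of copper release from vesicles, stood at 19.7, 18.1 and 14.7 TPM in goblet-enriched, 20.8, 21.3 and 18.5 TPM in enterocyte-enriched and 13.0, 13.1 and 11.8 TPM in Lgr5-enriched libraries. The Lgr5-enriched libraries were lowest without overlap. Slc31a2 was 0.63 higher on the log2 scale in enterocyte-enriched than in Lgr5-enriched cells (SE 0.15, limma adjusted p = 0.00739), and in goblet-enriched against Lgr5-enriched cells its difference was 0.43 (limma adjusted p = 0.0533; 0.0154 with the replicate block).

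Other copper-handling genes were read from a list of 14, of which 13 were tested and Sco2 was at 0 in all libraries. The list held, among others, chaperones, pumps, reductases and the copper enzyme Sod1. In goblet-enriched against Lgr5-enriched cells 0 were higher and 5 lower (10.7% and 23.6% of all tested genes), and in goblet-enriched against enterocyte-enriched cells 0 were higher and 8 lower (28.2% and 15.9% of all). In enterocyte-enriched against Lgr5-enriched cells 3 were higher and 3 lower (12.0% and 37.6% of all). The list's median log2 fold change was -0.52 for goblet-enriched and 0.10 for enterocyte-enriched cells, each against Lgr5-enriched cells, and -0.62 for goblet-enriched against enterocyte-enriched cells, beside -0.26, -0.35 and 0.20 over all tested genes. Sod1, the copper and zinc superoxide dismutase, was at 336 ± 34.8 TPM in goblet-enriched, 560 ± 62.5 TPM in enterocyte-enriched and 760 ± 109 TPM in Lgr5-enriched libraries. It was 1.17 lower on the log2 scale in goblet-enriched than in Lgr5-enriched cells (log2 fold change -1.17, limma adjusted p = 0.000639).

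Ccs, the chaperone that hands copper to Sod1, was at 48.3 ± 13.1, 96.1 ± 10.9 and 73.7 ± 20.4 TPM in goblet-enriched, enterocyte-enriched and Lgr5-enriched libraries and was lower in goblet-enriched than in enterocyte-enriched cells (-1.01, limma adjusted p = 0.0116). Steap3, a metal reductase, was at 22.0 ± 8.54, 45.5 ± 5.76 and 35.9 ± 11 TPM and was likewise lower (-1.08, limma adjusted p = 0.0183). Atp7a, the pump that passes copper out of enterocytes, was at 22.9 ± 6.98, 17.4 ± 4.01 and 35.5 ± 10.2 TPM and was lower in enterocyte-enriched than in Lgr5-enriched cells (-0.98, limma adjusted p = 0.0129).

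Other genes reported as Mtf1 targets did not share 1 profile. Of 7 listed, 4 were tested and 3 called by the F test (63.1% of all tested genes were). Csrp1, a LIM domain protein, was at 378 ± 76.1 TPM in goblet-enriched, 59.6 ± 21.3 TPM in enterocyte-enriched and 154 ± 9.38 TPM in Lgr5-enriched libraries. Ndrg1, a stress-responsive gene, was at 362 ± 77.1, 130 ± 18.3 and 28.0 ± 16.0 TPM, and Gclc, which makes the first intermediate of glutathione, at 44.4 ± 6.65, 53.1 ± 8.17 and 81.3 ± 5.46 TPM in the same populations. Both Csrp1 and Ndrg1 were higher in goblet-enriched than in Lgr5-enriched cells (log2 fold changes 1.27 and 3.77, limma adjusted p = 0.00632 and 9.45e-05), and Gclc was lower (-0.87, limma adjusted p = 0.00336). Mt1 and Mt2 are also induced by glucocorticoids, and of 7 glucocorticoid target genes, all tested, 2 were called by the F test, Fkbp5 and Tsc22d3, beside 63.1% of all tested genes. Fkbp5 was at 15.0 ± 3.56 TPM in goblet-enriched, 88.6 ± 11.4 TPM in enterocyte-enriched and 37.0 ± 10.4 TPM in Lgr5-enriched libraries, and Tsc22d3 at 44.5 ± 11, 82.9 ± 7.51 and 51.3 ± 18.9 TPM. Against Lgr5-enriched cells 1 of the 7 was lower in goblet-enriched cells, Fkbp5, and 1 was higher, Dusp1, which is named after its values were seen (662 ± 195 TPM in goblet-enriched and 359 ± 87.1 TPM in Lgr5-enriched libraries, log2 fold change 0.86, limma adjusted p = 0.0418). Of 10 genes that respond to tissue dissociation, the F test called 2, Hspa1a and Hspa1b, beside 63.1% of all tested genes. Hspa1a was at 437 ± 233, 297 ± 56.6 and 828 ± 316 TPM and Hspa1b at 641 ± 325, 440 ± 55.7 and 1179 ± 413 TPM in goblet-enriched, enterocyte-enriched and Lgr5-enriched libraries, and both were lower in enterocyte-enriched than in Lgr5-enriched cells (-1.43 and -1.37, limma adjusted p = 0.0104 and 0.00917). The part of these responses in the metallothionein values was not tested.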

How the data were processed

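Bulk messenger RNA was sequenced from 9 libraries of 3 sorted populations. The deposited values are on a log2 scale, 1 for each gene in each library: the authors' values are log2(TPM) at 1 TPM and above and TPM minus 1 below it, and after back-transformation each library sums to 1000000 TPM. The submitters' processing notes name Cufflinks and mm10; which aligner and annotation were used, how shared reads were treated and whether strand was counted are points not given in the sources used here, though the library kit is stranded per the labels. In GENCODE, 14 members are overlapped by a gene on the other strand and 6 by one on their own, and their values are uncertain to that extent. TPM fixes the total of each library, so an abundant transcript lowers all others. Such a transcript was Rn45s, at 49046 TPM in Lgr5-enriched replicate 1 and 2356 to 6009 TPM elsewhere.

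Whole reads were recovered from the steps of the values for 18396 of 18396 genes above 0 (100%, tolerance 0.0001 read); they are lower bounds and give the depth, 11.18 to 26.78 M reads (M, times 1000000). Tests used lmFit and eBayes (with trend) of limma 3.58.1 under R 4.3.3, on log2(TPM + 1) over all 9 libraries, with 6 residual and 3.21 prior degrees of freedom, for the 12888 genes that reached 1 TPM in 3 or more libraries. Tests were two-sided, adjusted by Benjamini-Hochberg over all tested genes and called below 0.05. The fit was tested on simulated data. Tables were made with Python 3.11.15. Fold changes on this scale understate those of low genes. A count of 0 was read as allowing up to 3 reads.

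Deviations of same-numbered libraries from their population means correlated at 0.194 to 0.601 in 9 pairs. Those of other-numbered libraries correlated at -0.52 to 0.166 in 18 pairs. The main fit did not pair the libraries. A replicate block was run as an alternative, and its value is given where it changes a call. The sex-linked transcripts of enterocyte-enriched replicate 1 set it apart from the libraries that share its number. That number may thus not mark 1 shared animal, and the block may pair this library wrongly. Beside the block, the alternatives were another pseudocount, no filter, other scalings, library weights, no trend and replicates 2 and 3 alone. Further alternatives were each library left out, the 6 libraries of a comparison alone and, chosen after seeing the data, voom on the recovered reads.

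All members are named, and up to 4 genes of each further list: those called by the F test with the largest fold change in any comparison. Members and lists were chosen with earlier results of these data known. Promoter letters are from RefSeq; no per-sample column was left unused.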

Additional observations from a re-analysis of the deposited data

How the results depend on the processing

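Of 38 calls of a member in a comparison, 26 held in all 19 alternatives run. The other 12 ended in at least 1 of them, and none of the 38 turned its direction in any. The 26 include the calls of Mt3 and Slc30a2, which had to differ among tested genes. Member calls in goblet-enriched against Lgr5-enriched cells numbered 10, and 17 with the replicate block and 19 with library weights. Leaving out each library in turn gave counts of 7 to 12 there, of 7 to 10 (10 with all libraries) in enterocyte-enriched against Lgr5-enriched cells, of 16 to 18 (18 with all) in goblet-enriched against enterocyte-enriched cells and of 18 to 19 (19 with all) in the F test. With replicates 2 and 3 alone the counts were, in that order, 15, 11, 19 and 21, without the library labelled enterocyte-enriched replicate 1 they were 12, 9, 17 and 19, and by voom on the recovered reads 11, 10, 18 and 20. Over all tested genes, goblet-enriched against Lgr5-enriched calls numbered 4423, and 6357 with the block, 7611 with library weights and 2660 without Lgr5-enriched replicate 3. In the order above, the main fit called 4423, 6396, 5687 and 8136 of all 12888 tested genes. Replicates 2 and 3 alone gave 5732, 7044, 6096 and 8859. The fit without enterocyte-enriched replicate 1 gave 4598, 5295, 4572 and 7217, and voom gave 3938, 5841, 5165 and 7544. Without replicate 1 of a population, the F test lost Mt1 (limma adjusted p = 0.0563) and Slc39a5 (0.0622), both without the goblet-enriched library, and Slc39a9 (0.0706, without the enterocyte-enriched library), and gained Mt2 (0.000855, without the enterocyte-enriched library) and Slc30a4 (0.00333, without the goblet-enriched library). The replicate block changed no member call other than those given beside the values. Genes that were not called were less settled: against Lgr5-enriched cells, 9 of 16 members not called in goblet-enriched and 8 of 16 not called in enterocyte-enriched cells passed in at least 1 alternative, and so did 1 of 8 in goblet-enriched against enterocyte-enriched cells. The cause of these changes was not tested. Depth limits Mt3, Slc30a2, Slc30a10 and Slc39a6 where they rest on fewer than 20 reads.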
